A study of Mus musculus with 8 samples.

Results

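Toll-like receptors are the microbe- and damage-sensing receptors of innate immune cells, and 10 of their genes, Tlr1 to Tlr9 and Tlr13, were followed here in microglia. Their rows were found by gene symbol in a table of 46983 genes made by total RNA sequencing of microglia from the corpus callosum of mice. All 10 were present, none was repeated, and all 10 passed the filter on low values that left 22546 genes for testing. The set was defined by family membership and not by any measured value. It leaves out Tlr11 and Tlr12, whose values are given separately.

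The table covers 8 libraries, 4 named Qk-KO and 4 named WT, from mice of a hybrid FvB/C57BL6 background. Qk encodes quaking, an RNA-binding protein that regulates splicing and RNA stability. Mice described as Qk-KO carried 2 loxP-flanked alleles of Qk (QK LoxP/LoxP). Those described as WT carried 1 such allele (QK LoxP/+). All of them carried Cx3cr1-CreER, a tamoxifen-inducible Cre recombinase expressed from the Cx3cr1 locus, which is active in microglia and in other Cx3cr1-expressing myeloid cells. The control mice were therefore not free of Cre or of a conditional allele. Every group received tamoxifen at 8 weeks of age and then 0.2% cuprizone in the food for 6 weeks. Cuprizone is a copper chelator that kills oligodendrocytes and removes myelin. Nothing in the labels says that the libraries of a group came from different animals. The p-values therefore describe variation among these 8 libraries, part of which may be technical.

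The labels disagree with each other for 4 of the 8 libraries. Named Qk-KO 1 and 3 are WT in the genotype field, and named WT 2 and 3 are Qk-KO in that field. Libraries are called by their names here, and both readings were tested. Across 14150 genes, the differences by name correlated with the fold changes in the authors' deposited table at r = 0.917, and those by genotype field at r = -0.229. Genes are not independent replicates, and both sides of these correlations come from the same libraries. A positive fold change in the authors' deposited table is thus read as higher in the libraries named Qk-KO.

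Each Toll-like receptor is a membrane protein with a leucine-rich ectodomain that binds a ligand and an intracellular TIR domain that recruits adaptors. Receptors of the cell surface bind lipoproteins, lipopolysaccharide and flagellin, and receptors of endosomes bind nucleic acids. Most signal through the adaptor Myd88 to NF-kB and inflammatory cytokines, while Tlr3 signals through Ticam1 (TRIF), and Tlr4 uses both. Microglia are the main cells of the brain that express this family, and in demyelinated tissue they clear myelin debris.

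Qk itself was not lower in the libraries named Qk-KO. Its regularized log2 values, a depth-scaled log2 scale that shrinks genes with few reads towards their mean, were 15.59, 15.40, 15.69 and 15.29 in named Qk-KO 1 to 4 and 15.50, 15.38, 15.41 and 15.37 in named WT 1 to 4. Grouped by the genotype field, the same values were 15.40, 15.29, 15.38 and 15.41 for Qk-KO and 15.59, 15.69, 15.50 and 15.37 for WT. In that grouping all WT values but that of named WT 4 lay above every Qk-KO value. The groups overlapped in both groupings, and what the Qk values say about the labels was not tested. Gene-level values count reads from the whole gene, so an excised exon need not show in them. Rough totals of reads assigned to genes were 43.9 to 58.5 M in named Qk-KO and 59.7 to 69.7 M in named WT libraries of reads, and these ranges did not overlap. All 8 microglia markers, among them Csf1r, P2ry12 and Tmem119, were above 0. Their summed level was 12299 to 14148 CPM (read counts scaled to the total assigned to genes) in named Qk-KO and 15107 to 16867 CPM in named WT libraries, so it was lower in every library named Qk-KO. The 7 neutrophil markers summed to 18.4 to 52.9 CPM in named Qk-KO libraries. In named WT they summed to 7.93 to 204.5 CPM, the highest in named WT 2. In bulk libraries of this kind, fewer cells of a type and less RNA per cell cannot be told apart.

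Tlr2 was the most abundant receptor transcript and Tlr5 the least. Levels were compared per kb of merged exon (GENCODE M21, GRCm38). Tlr2, the lipoprotein receptor that works with Tlr1 or Tlr6, averaged 208 ± 52.6 CPM per kb (SD, n = 8 libraries). Next came Tlr7, an endosomal receptor for single-stranded RNA, with 58.9 ± 2.44 CPM per kb, and Tlr13, a mouse receptor for bacterial ribosomal RNA that humans lack, with 41.7 ± 1.76 CPM per kb. The ranges of these 3 genes did not overlap with each other or with any lower gene.

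The middle of the order was less distinct. Tlr1 averaged 20.5 ± 1.18 CPM per kb and Tlr9, the endosomal receptor for unmethylated CpG DNA, 20.0 ± 2.93 CPM per kb, and the range of Tlr9 enclosed that of Tlr1. Tlr4, the lipopolysaccharide receptor, averaged 12.6 ± 1.48 CPM per kb, and Tlr6 8.95 ± 0.90 CPM per kb, with ranges that touched (lowest Tlr4 10.38, highest Tlr6 10.40). Tlr3, the endosomal receptor for double-stranded RNA, followed at 4.99 ± 0.95 CPM per kb. The lowest levels were those of Tlr8, an RNA-sensing relative of Tlr7, at 1.64 ± 0.33 CPM per kb, and Tlr5, the flagellin receptor, at 0.42 ± 0.05 CPM per kb. Tlr3, Tlr8 and Tlr5 did not overlap with their neighbours in the order.

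**Figure D1:**
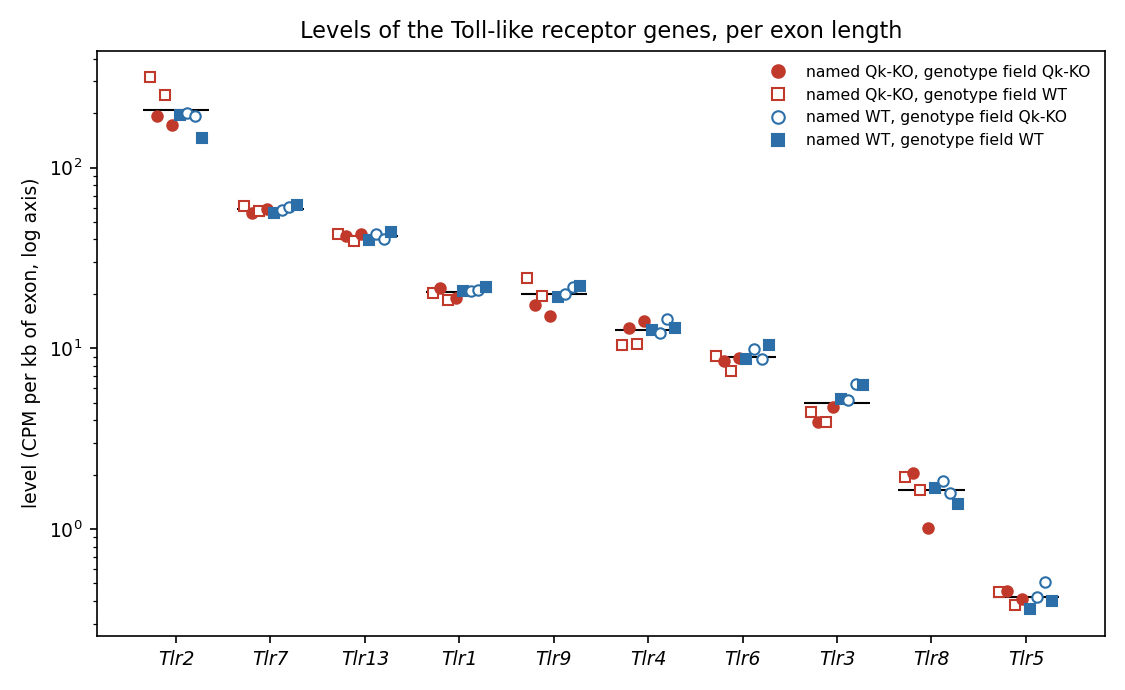
Level of each Toll-like receptor gene in CPM per kb of merged exon on a log axis, genes ordered by their mean, 1 point per library and a bar at the mean of 8 libraries; red is named Qk-KO, blue is named WT, and open symbols mark libraries whose genotype field states the opposite of the name. Tlr2 lies at 146 to 316 CPM per kb, above every other gene, and Tlr5 below 1 CPM per kb.

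The genes also differed in how much they varied. Tlr7 and Tlr13 were the most even over the 8 libraries, with coefficients of variation of 4.14% and 4.22%, and Tlr2 varied most, at 25.3%. Tlr2 made up 57.6 ± 6.28% of the summed level per kb of the 10 genes in named Qk-KO and 51.2 ± 4.49% in named WT libraries (SD, n = 4 each). That sum was 399 ± 68.4 CPM per kb in named Qk-KO and 356 ± 19.6 CPM per kb in named WT libraries, and its ranges overlapped.

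Of the 10 genes, Tlr3 had lower values in named Qk-KO libraries and was called in the authors' deposited table but not by limma. The other 9 were called by neither test. In the authors' deposited table, 1 of 10 was called at an adjusted p under 0.05, in the lower direction, against 1.22% of its 14150 genes with an adjusted p in either direction and 0.671% lower. With limma none of the 10 was called, and among all genes tested 1 was (0.00444% of 22546). At an unadjusted p under 0.05, limma passed 1 of the 10, Tlr3, against 8.26% of all genes in either direction and 4.50% lower. Tlr3 was also the 1 gene of the 10 whose groups did not overlap, against 5.73% of all genes tested, 2.70% lower and 3.04% higher. Differences were below 0 for 7 of the 10, with a median of -0.06 on the log2 scale, against 51.2% and a median of 0.00 for all genes tested.

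**Figure D2:**
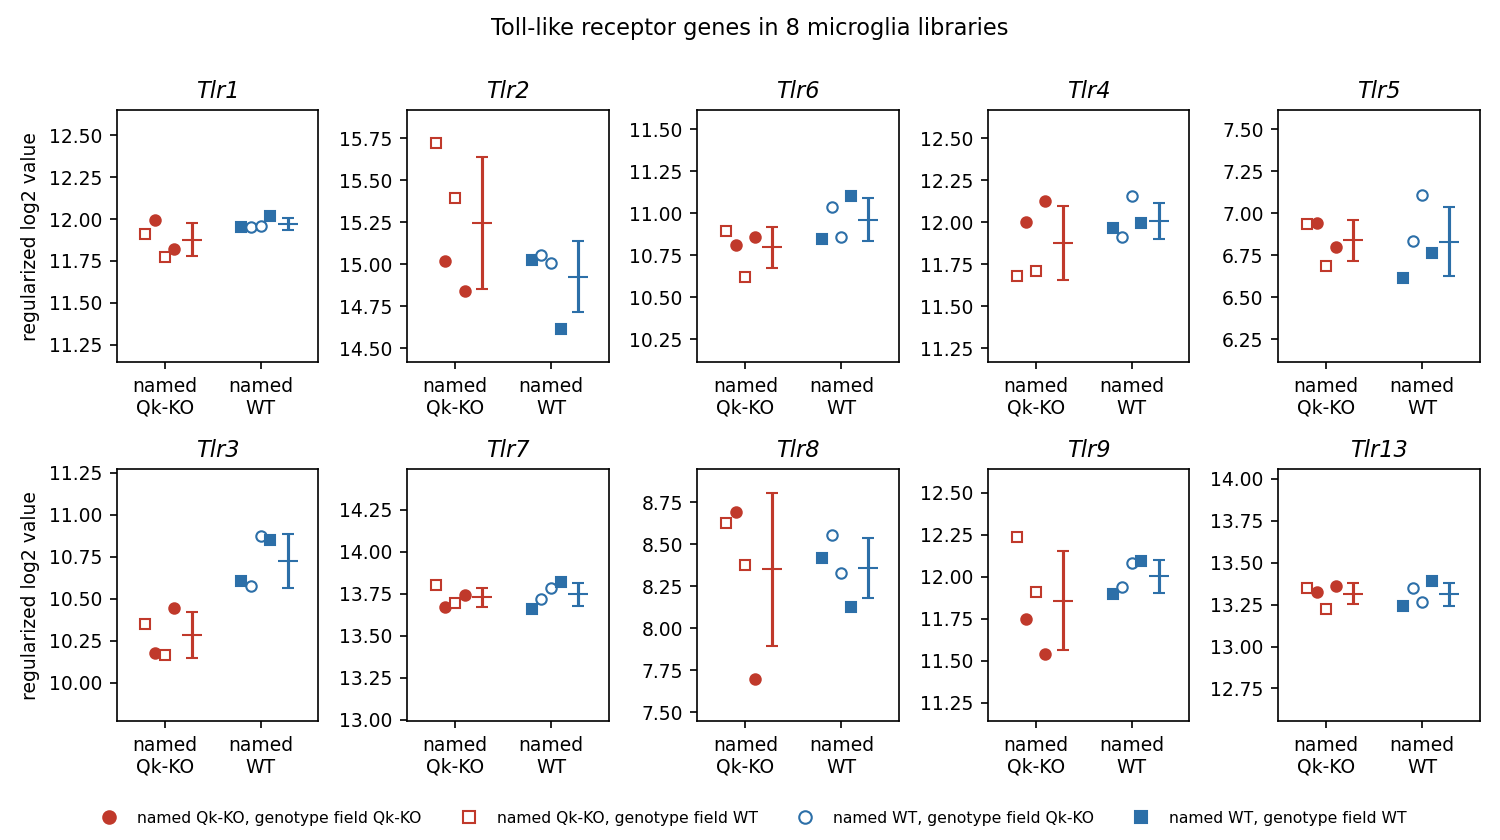
Regularized log2 value of each Toll-like receptor gene in the 4 libraries named Qk-KO (red, left) and the 4 named WT (blue, right), with the mean and SD of each group beside the points; open symbols mark libraries whose genotype field states the opposite of the name, and every panel covers at least the same log2 span. Tlr3 is the gene whose groups do not overlap, at 10.17 to 10.44 in named Qk-KO and 10.57 to 10.87 in named WT libraries.

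Tlr3 recognises double-stranded RNA, a product of viral replication, in endosomes, and is the family member that does not use Myd88. The gene (ENSMUSG00000031639) lies at chr8:45395665-45411080 on the minus strand of GRCm38. Its log2 values were 10.35, 10.18, 10.17 and 10.44 in named Qk-KO 1 to 4, against 10.60, 10.57, 10.87 and 10.85 in named WT 1 to 4. All 4 libraries named Qk-KO lay below all 4 named WT, and the nearest pair was named Qk-KO 4 and named WT 2. The means were 10.28 ± 0.14 in named Qk-KO and 10.73 ± 0.16 in named WT libraries (SD, n = 4 each). As levels, these correspond to 4.23 ± 0.40 CPM per kb in named Qk-KO and 5.75 ± 0.63 CPM per kb in named WT libraries.

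By limma, the difference of Tlr3 was -0.44 ± 0.10 on the log2 scale (SE, 95% interval -0.65 to -0.23), with a Benjamini-Hochberg adjusted p of 0.344. The authors' deposited table gives Tlr3 a log2 fold change of -0.45 ± 0.11 (SE) and an adjusted p of 0.0120, a level of 0.731 times that of named WT. The call for Tlr3 thus holds in the authors' deposited table and not in limma, whose adjusted p ran between 0.0753 (named Qk-KO 4 left out) and 0.793 (named WT 1 left out) when single libraries were left out. For Tlr3 the difference by name was -0.42 among the 4 libraries whose labels agree (limma adjusted p = 0.973). It was -0.46 among the 4 whose labels contradict (limma adjusted p = 0.335). As the groups by name did not overlap, both subsets had to give the same sign.

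Besides Tlr3, several other measures had lower means in named Qk-KO libraries. The summed microglia markers did not overlap between the groups either, as given above. All 6 astrocyte markers had a lower mean in named Qk-KO libraries, and none was at 0. Their sums were 188, 124, 80.6 and 438 CPM in named Qk-KO 1 to 4 and 353, 189, 230 and 496 CPM in named WT 1 to 4. All markers of monocytes (5), border-associated macrophages (6), oligodendrocytes (6), oligodendrocyte precursors (4), neurons (5) and erythroid cells (5) also had lower means in named Qk-KO libraries, with sums that overlapped between the groups. Other lists were mixed, with lower means for 6 of 8 microglia, 6 of 7 neutrophil, 5 of 6 endothelial and 4 of 6 T and NK cell markers. Of the 6 B cell and plasmacytoid dendritic cell markers, 1 was lower and 5 were higher. Read totals were also lower in every library named Qk-KO. The part of these differences in the Tlr3 result was not tested. In the annotation, 381 exon bases of Tlr3 (7.32% of its merged exon) overlap the antisense gene Gm45542 on the opposite strand. Whether strand was used in counting was not given in the labels, so reads in the overlap cannot be told apart.

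The 300 bases from 250 before to 50 after the RefSeq start of Tlr3 are shown because Tlr3 was the gene of the family that passed the authors' test. They are from RefSeq (GRCm38.p6, chr8:45410331-45410630, minus strand), 5′ to 3′. This window lies inside the GENCODE M21 extent of Tlr3 given above, so the RefSeq start lies downstream of the start of that extent. The capitals mark the single match to the NF-kB-type pattern, GGG followed by any 2 bases and then TTTCC, which was searched on both strands and begins at position -211 from the start.
Tlr3 promoter: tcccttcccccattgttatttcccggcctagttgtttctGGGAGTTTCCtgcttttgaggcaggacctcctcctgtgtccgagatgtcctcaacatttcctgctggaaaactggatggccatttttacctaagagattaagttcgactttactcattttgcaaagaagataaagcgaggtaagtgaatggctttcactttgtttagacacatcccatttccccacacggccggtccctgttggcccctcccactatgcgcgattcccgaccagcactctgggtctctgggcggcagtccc
The same pattern is held by 1.63% of the 32851 promoters in the RefSeq table. Promoters were found there for 8 of the 10 genes. None of the other 7 held that pattern. Tlr6 held 2 overlapping matches to the interferon-response pattern, TTTC repeated after any 2 bases, which is found in 3.44% of all promoters. The PU.1 core GAGGAA, found in 28.3% of promoters, was present in Tlr1, Tlr8, Tlr9 and Tlr13, and neither Tlr2 nor Tlr5 held any of the 3 patterns. These matches describe letters in this window only.

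Quaking binds RNA at sites that can hold the core ACTAAC (written as DNA), the only form searched here. Among the 3′ UTRs of the 10 genes, taken from 1 transcript each in GENCODE M21, that of Tlr3 held the core once, at base 842 of 1248, and the other 9 did not. The core was present in 17.3% of 3040 genes with a 3′ UTR of like length and in 17.7% of all genes searched. For the other 9, the share among genes of like length ran from 0.266% (Tlr8, 58 bases) to 17.8% (Tlr4, 1321 bases). It was at most 6.28% for Tlr1, Tlr2, Tlr5, Tlr7, Tlr8 and Tlr9, whose 3′ UTRs are short. The site is shown with the core in capitals, at chr8:45396054-45396083 on the minus strand of GRCm38, 5′ to 3′.
Tlr3 3′ UTR site: gtctctaaatgtACTAACtttgctttttgg
The match is a description of sequence, and binding was not measured in these libraries.

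At the cell surface, Tlr2 had the widest spread of the family, and its groups overlapped. Its log2 values were 15.72, 15.02, 15.40 and 14.84 in named Qk-KO 1 to 4 and 15.03, 15.06, 15.01 and 14.61 in named WT 1 to 4. Named Qk-KO 1 and 3 were above every library named WT, while named Qk-KO 2 and 4 were not. The means were 15.24 ± 0.39 in named Qk-KO and 14.93 ± 0.21 in named WT libraries (SD, n = 4 each). With limma the difference was 0.32 ± 0.19 (SE, 95% interval -0.12 to 0.75, adjusted p = 0.686). In the authors' deposited table the log2 fold change of Tlr2 was 0.35 with an adjusted p of 0.497. Leaving out a single library moved the limma difference of Tlr2 between 0.16 (named Qk-KO 1 left out) and 0.45 (named Qk-KO 4 left out).

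Tlr1 and Tlr6, the partners of Tlr2 for triacylated and diacylated lipoproteins, were lower in the named Qk-KO mean without passing the test. Tlr6 had log2 values of 10.90, 10.81, 10.62 and 10.86 in named Qk-KO 1 to 4 and 10.85, 11.04, 10.86 and 11.10 in named WT 1 to 4. The lowest value was that of named Qk-KO 3 and the highest that of named WT 4, and the groups overlapped. Its limma difference was -0.16 ± 0.08 (SE, 95% interval -0.35 to 0.02, adjusted p = 0.654). For Tlr1 the values were 11.91, 11.997, 11.77 and 11.82 in named Qk-KO 1 to 4 and 11.95, 11.95, 11.96 and 12.02 in named WT 1 to 4, with a limma difference of -0.09 ± 0.06 (SE, adjusted p = 0.688).

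Tlr1 and Tlr6 are neighbours on chromosome 5 and share sequence, so their counts are uncertain where reads fall in the shared parts. Of the 2995 31-base words of the Tlr1 transcript, 603 (20.1%) also occur in Tlr6. Of the 3635 words of Tlr6, 607 occur in Tlr1. Compared in the sense direction only, from 1 transcript of each, the other 8 genes shared none with any other gene. The longest run common to both, 229 bases of coding sequence, is shown because a short read inside it cannot be assigned to 1 of the genes by sequence. It lies at chr5:64925537-64925765 in Tlr1 and chr5:64953828-64954056 in Tlr6, both on the minus strand of GRCm38.
Run shared by Tlr1 and Tlr6: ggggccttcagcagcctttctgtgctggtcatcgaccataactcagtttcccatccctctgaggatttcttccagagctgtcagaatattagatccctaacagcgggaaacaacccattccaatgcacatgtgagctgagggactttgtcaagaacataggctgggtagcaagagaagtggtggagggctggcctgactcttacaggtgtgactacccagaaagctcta

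Tlr4, which binds bacterial lipopolysaccharide with Ly96 and Cd14, had log2 values of 11.68, 12.001, 11.71 and 12.13 in named Qk-KO 1 to 4 and 11.97, 11.91, 12.16 and 11.99 in named WT 1 to 4. Named Qk-KO 1 and 3 were the 2 lowest libraries, and named Qk-KO 4 was above 3 of the 4 named WT. The limma difference was -0.13 ± 0.11 (SE, 95% interval -0.37 to 0.11, adjusted p = 0.753). The 2 libraries with the lowest Tlr4 were the 2 with the highest Tlr2. Across the 8 libraries the Pearson r of Tlr4 with Tlr2 was -0.81, the lowest of any pair in the family, given as a description of libraries that also differ in depth.

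Tlr5 had the lowest level of the 10 genes, and its groups overlapped. It had log2 values of 6.93, 6.94, 6.68 and 6.80 in named Qk-KO 1 to 4 and 6.62, 6.83, 7.11 and 6.76 in named WT 1 to 4, about 2.02 CPM on average. The highest and the lowest value were both in named WT. Its limma difference was 0.01 ± 0.15 (SE, 95% interval -0.33 to 0.35, adjusted p = 0.993).

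Among the other endosomal receptors, Tlr7 and Tlr13 had the narrowest intervals. Tlr7 had log2 values of 13.80, 13.67, 13.69 and 13.75 in named Qk-KO 1 to 4 and 13.66, 13.72, 13.78 and 13.82 in named WT 1 to 4. Its limma difference was -0.02 ± 0.05 (SE, 95% interval -0.14 to 0.10, adjusted p = 0.940). Tlr13 had values of 13.35, 13.32, 13.22 and 13.36 in named Qk-KO 1 to 4 and 13.24, 13.35, 13.27 and 13.39 in named WT 1 to 4, with a limma difference of 0.00 ± 0.06 (SE, 95% interval -0.12 to 0.13, adjusted p = 0.996). For both genes the groups overlapped throughout, and the intervals leave room for differences down to -0.14 for Tlr7 and -0.12 for Tlr13, and up to 0.10 for Tlr7 and 0.13 for Tlr13.

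Tlr9 and Tlr8 were more variable. Tlr9 had log2 values of 12.24, 11.75, 11.91 and 11.54 in named Qk-KO 1 to 4 and 11.90, 11.94, 12.08 and 12.10 in named WT 1 to 4. The named Qk-KO libraries held both the highest and the lowest value. Its limma difference was -0.14 ± 0.13 (SE, 95% interval -0.44 to 0.15, adjusted p = 0.780). Tlr8 had values of 8.63, 8.69, 8.38 and 7.70 in named Qk-KO 1 to 4 and 8.42, 8.56, 8.33 and 8.13 in named WT 1 to 4, with a limma difference of -0.01 ± 0.21 (SE, 95% interval -0.48 to 0.47, adjusted p = 0.996). The lowest Tlr8 value was that of named Qk-KO 4. Without that library the limma difference was 0.21.

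Grouped by the genotype field, none of the 10 genes was called by limma, as none of 22546 genes was (0%), and 602 genes, 2.67% of them, had an unadjusted p under 0.05. No gene of the 10 had groups without overlap in this grouping, against 1.85% of all genes tested. Tlr3 did not differ in this grouping beyond its error, at 0.02 ± 0.18 (SE, limma adjusted p = 0.9995). Tlr4 was the 1 gene of the 10 with an unadjusted p under 0.05. Its values were 12.001, 12.13, 11.91 and 12.16 in the 4 libraries that the field calls Qk-KO and 11.68, 11.71, 11.97 and 11.99 in those it calls WT. The groups overlapped, and the limma difference was 0.21 ± 0.09 (SE, 95% interval 0.00 to 0.42, adjusted p = 0.9995). Tlr2 had the opposite sign from the grouping by name, at -0.21 ± 0.21 (SE, limma adjusted p = 0.9995).

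**Figure D3:**
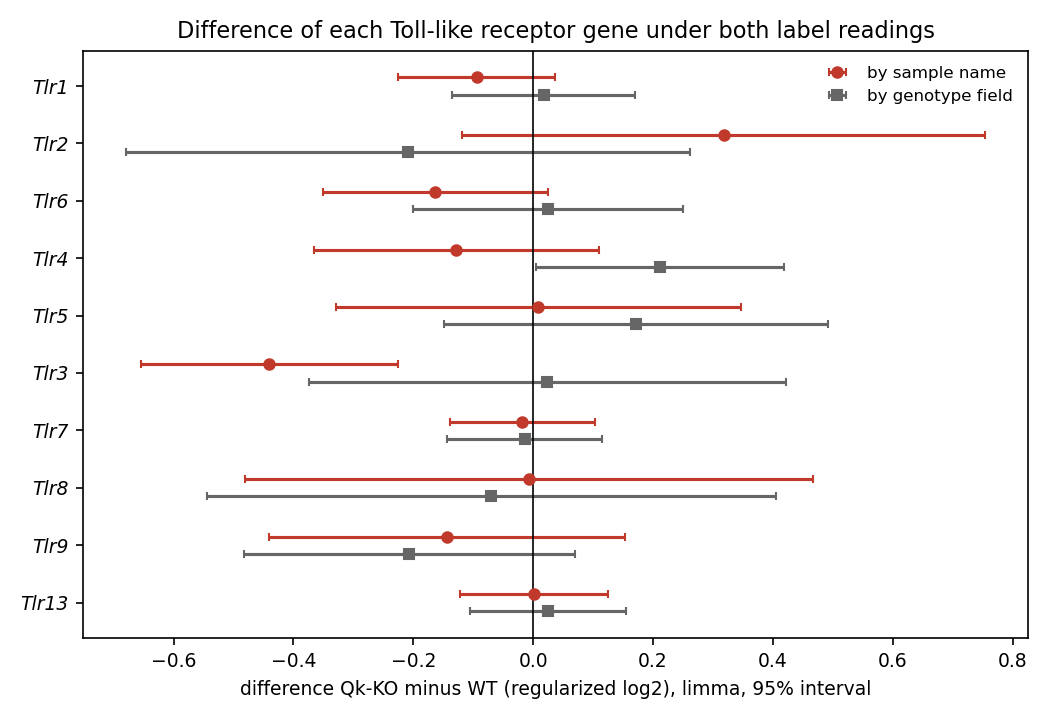
Difference Qk-KO minus WT of each Toll-like receptor gene on the regularized log2 scale with its 95% interval from limma, by sample name (red circles) and by genotype field (grey squares), 4 libraries against 4 in both. The interval of Tlr3 by name, -0.65 to -0.23, lies below 0, and its estimate by genotype field is 0.02.

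The mouse has other genes of the family, Tlr11 and Tlr12, which bind profilin of protozoan parasites. Tlr12 had log2 values of 10.08, 10.28, 9.82 and 10.57 in named Qk-KO 1 to 4 and 10.54, 10.36, 10.69 and 10.59 in named WT 1 to 4. Named Qk-KO 1, 2 and 3 lay below all 4 named WT, and named Qk-KO 4 did not. Its limma difference was -0.36 ± 0.15 (SE, adjusted p = 0.582), and the authors' deposited table gives it an adjusted p of 0.404. Tlr11 averaged 0.93 CPM, below the level the rule for named genes asks for, and is given to complete the family. It had log2 values of 4.67, 5.63, 4.78 and 5.64 in named Qk-KO 1 to 4 and 5.94, 5.73, 5.91 and 6.33 in named WT 1 to 4. Its groups did not overlap, as in 5.73% of all genes tested (2.70% lower). Its limma difference was -0.80 ± 0.27 (SE, adjusted p = 0.493). Its adjusted p in the authors' deposited table was 0.256. Both Tlr11 and Tlr12 were lower at an unadjusted limma p under 0.05, against 4.50% of all genes tested. By genotype field the median limma difference of Tlr11 and Tlr12 had the opposite sign, at 0.26.

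Of the 7 co-receptor genes, 1 was called in the authors' deposited table, against 1.22% of all genes with an adjusted p there (0.671% lower). It was Cd36, a scavenger receptor that works with the Tlr2 and Tlr6 pair and binds oxidised lipids. Cd36 had log2 values of 10.10, 10.03, 9.71 and 9.98 in named Qk-KO 1 to 4 and 10.52, 10.66, 10.36 and 10.59 in named WT 1 to 4. The groups did not overlap, which held for 1 of the 7 co-receptor genes, against 5.73% of all genes tested (2.70% lower). The authors' deposited table gives Cd36 a log2 fold change of -0.59 and an adjusted p of 0.000226, while the limma difference was -0.58 ± 0.10 (SE, adjusted p = 0.255). Cd14, which hands lipopolysaccharide to Tlr4 and is named here after its values were seen, had log2 values of 16.23, 15.63, 16.13 and 15.72 in named Qk-KO 1 to 4. In named WT 1 to 4 they were 15.45, 15.64, 15.56 and 15.12. Named Qk-KO 2 lay within the range of named WT and the other 3 above it, and the limma difference of Cd14 was 0.49 ± 0.16 (SE, adjusted p = 0.485). In the authors' deposited table Cd14 has a log2 fold change of 0.50 and an adjusted p of 0.0940. As with Tlr2, named Qk-KO 1 and 3 held the highest Cd14 values and named WT 4 the lowest. Lbp, the plasma protein that passes lipopolysaccharide to Cd14, is also named after its values were seen. It averaged 1.38 CPM, and its log2 values were 5.43, 5.10, 4.85 and 6.64 in named Qk-KO 1 to 4 and 6.44, 7.02, 6.54 and 6.39 in named WT 1 to 4. Named Qk-KO 4 lay within the range of named WT and the other 3 below it, and the limma difference of Lbp was -1.09 ± 0.36 (SE, adjusted p = 0.485). In the authors' deposited table Lbp has a log2 fold change of -0.94 and an adjusted p of 0.301.

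The list of genes that fold, move or cleave the endosomal receptors has 11 members, and 10 of them have an adjusted p in the authors' deposited table. Of these 10, 1 was called, against the same 1.22% of all genes (0.671% lower). This was Ctss, cathepsin S, a lysosomal protease that can cleave their ectodomains. Ctss had log2 values of 18.24, 18.23, 17.91 and 18.03 in named Qk-KO 1 to 4 and 18.40, 18.36, 18.47 and 18.49 in named WT 1 to 4. Ctss was the 1 gene of the 11 without overlap, against 5.73% of all genes tested (2.70% lower). The authors' deposited table gives Ctss a log2 fold change of -0.33 and an adjusted p of 0.0310, and the limma difference was -0.33 ± 0.08 (SE, adjusted p = 0.366). Unc93b1, the chaperone that brings the endosomal receptors out of the endoplasmic reticulum, had a limma difference of -0.06 ± 0.05 (SE, adjusted p = 0.753). It is named for that role, outside the rule for named genes. As for Tlr3, the microglia marker sum and the read totals were lower in every library named Qk-KO, and the astrocyte marker sums overlapped between the groups. Their part in the Cd36 and Ctss results was not tested.

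The remaining lists held no gene called by limma or in the authors' deposited table, which gives an adjusted p for 4 of the 5 adaptors, for 15 of the 19 tested target genes and for every gene of the ligand removal, kinase, transcription factor and negative regulator lists. The 7 genes that remove nucleic acid ligands had a median difference of -0.10 by name and 0.02 by genotype field. In this list the lysosomal nucleoside transporter Slc29a3 differed by -0.24 ± 0.13, the lysosomal nuclease Dnase2a by -0.21 ± 0.09 and the exonuclease Trex1 by -0.14 ± 0.19 (SE). The 5 adaptors had a median of -0.04. The TIR-domain enzyme Sarm1 differed by -0.23 ± 0.16, the TRIF-bridging adaptor Ticam2 by 0.08 ± 0.09 and the Myd88-bridging adaptor Tirap by -0.06 ± 0.11 (SE). Limma adjusted p for these 6 genes lay between 0.567 and 0.908.

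Downstream of the adaptors, the lists were read against a median of 0.00 for all genes tested. The 16 kinases and ubiquitin ligases had a median of 0.01 by name, with 12 of them above 0, and of -0.06 by genotype field. Ikbke, a kinase that activates Irf3, differed by -0.22 ± 0.15, Map3k8, which links the receptors to ERK signalling, by 0.20 ± 0.31, and Irak2, a Myd88-bound kinase, by 0.18 ± 0.11 (SE). The 12 transcription factors had a median of -0.01 by name and -0.13 by genotype field, and the 3 with the largest differences were NF-kB subunits. Rel differed by 0.53 ± 0.56, Relb by 0.22 ± 0.15 and Nfkb2 by 0.20 ± 0.21 (SE). Limma adjusted p for these 6 genes lay between 0.685 and 0.881.

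Of the 14 negative regulators, 9 were above 0 by name, with a median of 0.05, and the median by genotype field was -0.06. Tnip3, which binds the NF-kB inhibitor A20, differed by -0.33 ± 0.37, the inhibitory receptor Sigirr by -0.26 ± 0.29 and the inactive kinase Irak3 by -0.24 ± 0.16 (SE, limma adjusted p between 0.703 and 0.826). In this list 1 gene of 14 had groups without overlap, against 5.73% of all genes tested. It was Tnip1, another A20-binding protein, named after its values were seen, with a limma difference of 0.20 ± 0.07 (SE, adjusted p = 0.489). The adjusted p of Tnip1 in the authors' deposited table was 0.238.

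The list of inflammatory genes that these receptors induce had 19 of 20 members tested, 15 of them above 0 by name, with a median of 0.11. By genotype field the median had the opposite sign, at -0.19. Ptgs2, the inducible cyclooxygenase, had log2 values of 14.94, 13.47, 14.40 and 12.30 in named Qk-KO 1 to 4 and 13.62, 13.70, 13.62 and 11.53 in named WT 1 to 4. Its limma difference of 0.66 ± 0.73 (SE, adjusted p = 0.827) was smaller than its SE. The cytokine subunit gene Il12b differed by 0.26 ± 0.82 and the cytokine gene Il1a by 0.22 ± 0.40 (SE, limma adjusted p between 0.902 and 0.944). For all 3, named Qk-KO 1 and 3 were the highest libraries, and named Qk-KO 4 and named WT 4 the lowest. Tlr2 had the same 2 highest and the same 2 lowest libraries.

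**Figure D4:**
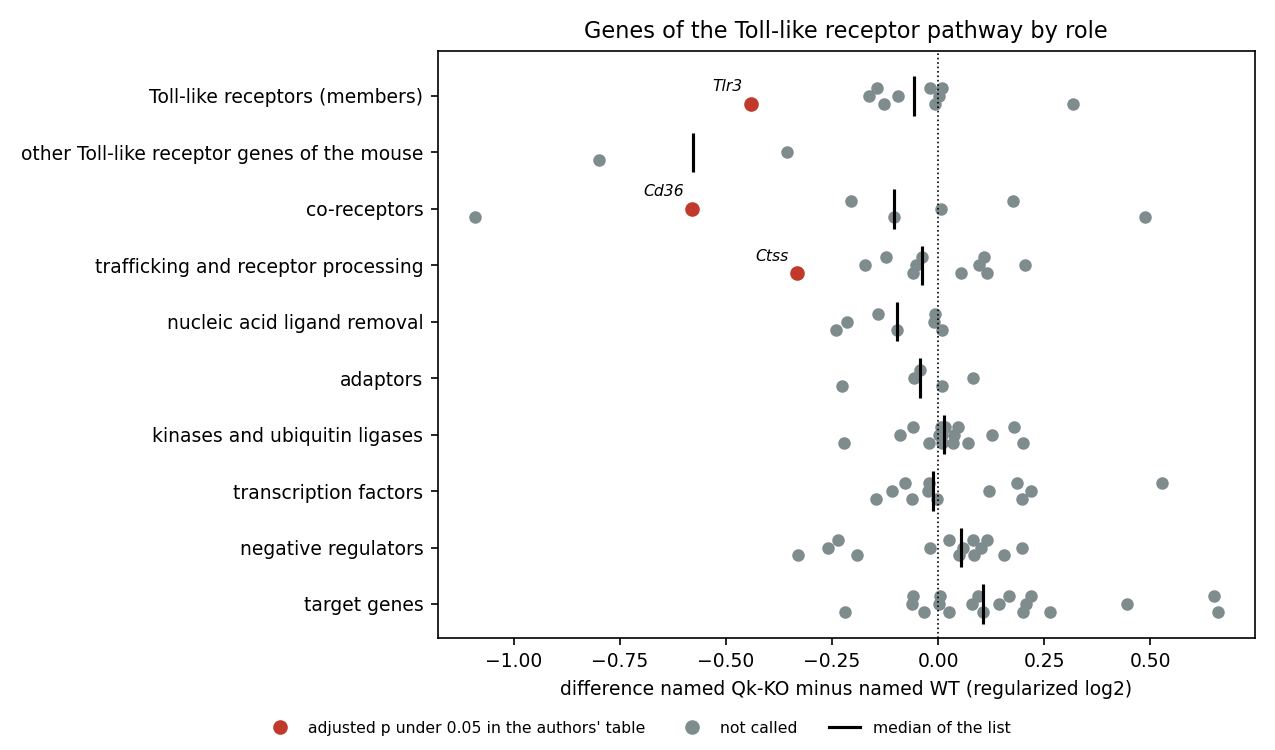
Limma difference named Qk-KO minus named WT on the regularized log2 scale for the tested genes of each list, 1 point per gene, with a bar at the median of the list; red points have an adjusted p under 0.05 in the authors' deposited table. Tlr3, Cd36 and Ctss are red and lie below 0, and list medians from the adaptors down to the target genes run from -0.04 to 0.11.

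Patterns over the 8 libraries were compared for the 3 genes of the family that varied most, against 13462 genes of at least 1 CPM. These correlations are descriptions over 8 libraries that come from a single table and differ in depth. Each gene named below was picked for 1 of the 3 highest r among the 13462 genes. How high such picked r run for unrelated genes over 8 libraries was not tested. The genes most like Tlr2 were Ninj1, a membrane protein of plasma membrane rupture (Pearson r = 0.994), Bcl2a1b, an anti-apoptotic gene (r = 0.991), and Rabgef1, an endosomal Rab5 exchange factor (r = 0.990). For Tlr8 they were Stk11ip (r = 0.985), Nrp1, a semaphorin co-receptor (r = 0.967), and Lyz1, a lysozyme (r = 0.961). For Tlr3 they were Sass6, a centriole protein (r = 0.976), Prox2, a homeobox gene (r = 0.975), and Chd5, a chromatin remodeler (r = 0.974). Of these 3, Prox2 and Chd5 averaged 2.45 and 3.37 CPM, where the regularized scale shrinks differences.

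Within the family, Tlr6 and Tlr13 were most alike (Pearson r = 0.78 over 8 libraries), and Tlr6 was also the most alike relative of Tlr1 (r = 0.69) and of Tlr3 (r = 0.66). The r between Tlr1 and Tlr6 includes any reads they share. The closest relative of Tlr2 was Tlr8 (r = 0.55), that of Tlr4 was Tlr3 (r = 0.56), that of Tlr9 was Tlr7 (r = 0.57), that of Tlr7 was Tlr13 (r = 0.58) and that of Tlr5 was Tlr7 (r = 0.43). Tlr3 and Tlr2 had an r of -0.56 over the same libraries.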

How the data were processed

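Total RNA of 8 microglia libraries, 4 named Qk-KO and 4 named WT, was measured by sequencing. The submitters' processing notes list DESeq2, StringTie, HISAT2 and FastQC, and mm10 as the build, with neither versions nor roles. For the annotation, the release was not given in the sources used here. Library columns deposited by the authors hold log2 values, read from their behaviour as regularized logs, with the 19497 genes without reads listed at 0. Other deposited columns are, per the file headers, a mean normalized signal (baseMean), a log2 fold change and its SE, a score (the test statistic), and p-values before and after adjustment. The table gives no count per library, so limma on the log2 values took the place of a count test.

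Of 27486 genes with reads, the 22546 with a log2 value of 0 or more in 4 or more libraries were tested with limma 3.58.1 in R 4.3.3, with trend and robust variance, and Benjamini-Hochberg adjustment over all of them. No pseudocount was added. The fit was tested on simulated data. It recovered 34.3% of 67 genes changed by 0.5 on the log2 scale, 77.6% of 67 changed by 1 and 92.4% of 66 changed by 2. Of its 139 calls, 3 were false. A gene that limma did not call is therefore not shown to be unchanged. CPM are the authors' signal divided by 56.8, and per-library CPM and levels per kb were computed from the log2 values and are rough. Read totals come from size factors recovered from genes with reads in 1 library. Regularization understates differences of genes with few reads, and depth differed between the groups by name.

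The 10 genes and the lists were chosen with earlier results of these data known. Named genes were all 10 members, from each list the genes called by either test and otherwise the 3 of at least 1 CPM with the largest limma difference, and, for the 3 most variable members, the 3 most alike genes. Exceptions are marked. Gene places, exon lengths and shared words are from GENCODE M21 (GRCm38), whose identifier versions differ from those of the table for Tlr3 and Tlr13. Promoters are from RefSeq (GRCm38.p6). Alternatives were the filter, the prior, the scaling, the grouping by label, a replicate block, single libraries left out and the authors' own test. No 2 libraries were near-identical (r between 0.954 and 0.988).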

Additional observations from a re-analysis of the deposited data

Results flagged for a closer look

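Among the 62 groups of 4 libraries formed by the 31 genes under both names, 6 held a library that lay far from the other 3, and chance gives about 1 in 20. In all 6 it was named WT 4. Tlr1 had its highest named WT value there, at 12.02, against 11.95 to 11.96 in the other 3. The remaining genes had their lowest named WT value in that library. Tlr2 was at 14.61, against 15.01 to 15.06 in the others. Map3k8 was at 11.61 (others 12.30 to 12.34) and Ptgs2 at 11.53 (others 13.62 to 13.70). The cytokine genes Il12b and Il1a were at 7.11 (others 8.81 to 9.06) and 13.59 (others 14.51 to 14.62). These 5 low values share 1 library, so they are not independent of each other. Without named WT 4, the limma differences of Tlr2 and Tlr3 were 0.21 and -0.40, with adjusted p of 0.897 and 0.625.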

How the results depend on the processing

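No Toll-like receptor gene was called by limma under any filter, prior, scaling, grouping or omission of a library. By the authors' test, in their deposited table, Tlr3 was called (-0.45), as was 1 gene each of the co-receptor and trafficking lists, with 173 genes in all. Limma called 1 gene of all those tested, 0 at a mean of at least 1 CPM (1392 at an unadjusted p under 0.05), 0 by genotype field, 3 in the libraries whose labels agree, 9 in those whose labels contradict, and 0 to 7 with single libraries left out. Named Qk-KO 3 left out gave 0 (1410 unadjusted) and named Qk-KO 4 gave 7. Same-numbered libraries did not all deviate together (r 0.05, 0.15, 0.27 and 0.46 for numbers 1 to 4, with 1 of 4 named Qk-KO libraries closest to another number), so the numbers were not taken as pairs. The replicate block called 1 gene, with 2924 against 1863 genes at an unadjusted p under 0.05. Of the 10 genes, 3 had such a p under the block (Tlr2, Tlr3 and Tlr6), against Tlr3 alone without it. By genotype field the median of the family was 0.021, Tlr1 was at 0.018, Tlr3 at 0.024, Tlr6 at 0.024, Tlr2 at -0.21 and Tlr4 at 0.21. By name, Tlr2 was at 0.11 where labels agree and 0.53 where they contradict, Tlr4 at 0.083 and -0.34, Tlr5 at 0.18 and -0.16, Tlr8 at -0.077 and 0.062, Tlr9 at -0.35 and 0.063 and Tlr13 at 0.026 and -0.023, in the same order. In these subsets limma adjusted p of the 10 genes were 0.280 or higher. Tlr8 was at 0.038 in the authors' deposited table. Centring on library medians gave Tlr5 -0.0060 and Tlr13 -0.013, and quantile scaling gave Tlr13 -0.021 and, by genotype field, Tlr7 0.020. Leaving out single libraries moved Tlr5 between -0.063 and 0.10, Tlr7 between -0.046 and 0.0066, Tlr8 between -0.12 and 0.21 and Tlr13 between -0.021 and 0.033. By genotype field it moved Tlr1 between -0.029 and 0.054, Tlr3 between -0.095 and 0.14, Tlr6 between -0.058 and 0.10, Tlr7 between -0.042 and 0.011, Tlr8 between -0.20 and 0.14 and Tlr13 between -0.0024 and 0.054. The cause of these shifts was not tested.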
